A study of Mus musculus with 4 samples.

Results

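Among mouse bone marrow stem and progenitor cells, 1339 cells carried the transcript pair Dntt and Flt3 with few transcripts of 5 B-lineage genes. They were found among 18168 quality-filtered cells in the 3 libraries described here, out of 22916 in the series. A member was a barcode with at least 1000 detected genes and at most 10% mitochondrial UMIs (unique molecular identifiers, each counting 1 captured transcript), at least 3 raw UMIs of Dntt, at least 1 of Flt3, and less than 0.2% of its UMIs from the 5 B-lineage genes Cd79a, Vpreb1, Vpreb3, Igll1 and Ebf1. The measured levels of these genes chose the cells, so their values below are a description and support nothing. The control library held 677 members, the Mll3 deleted library 427 and the Mll4 deleted library 235, while 2 of 4748 cells met the rule in the library with both genes deleted, which is not used further.

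Lymphoid-primed progenitors are the multipotent cells of the marrow that have started to transcribe lymphoid genes while retaining much of the stem cell surface phenotype. Flt3 encodes the receptor for FLT3 ligand, a cytokine that these cells need, and Dntt encodes terminal deoxynucleotidyl transferase, which adds untemplated bases to the joints of rearranging antigen receptor genes. Signals through the interleukin-7 receptor and the recombinase made from Rag1 and Rag2 mark the next stages towards B and T cells, and Satb1 encodes a chromatin organiser that takes part in lymphoid priming.

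The cells were CD45.2+ donor-derived, lineage-negative, Sca1+ and Kit+ (the stem and progenitor fraction), taken 10 weeks post-transplantation and profiled with the 10x Genomics 3' ver3.1 chemistry together with barcoded antibodies. One group was a control and the others carried a deletion of Mll3 or of Mll4, the genes (symbols Kmt2c and Kmt2d) of 2 large enzymes that methylate histone H3 at enhancers. Each genotype was 1 library. The number of mice, the strain, the deleting system and the genotype of the recipients are not given in the sources used here. Differences between genotypes therefore have no replicates behind them, and no p-value is given. Intervals are exact 95% Clopper-Pearson intervals for shares and exact Poisson intervals for UMI sums, and cover counting error only.

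Depth differed between the libraries and touches every comparison below. Median UMIs per member were 19290 in control, 19014 in the Mll3 deleted library and 33366 in the Mll4 deleted library, against 13995, 15170 and 20686.5 in the other cells of the same libraries. Between 30 and 38 barcodes of a library recurred in the other 2, 1 to 5 of them members, and none recurred between members. Doublets were kept, because Scrublet called only 3, 3 and 171 cells. Removing the highest scores at 0.8% of cells per 1000 cells would take out 39, 38 and 14 members. In the members Kmt2c stood at 60.8 CPM (UMIs of the gene per 1e+06 UMIs) in control, 33.3 in the Mll3 deleted library and 51.9 in the Mll4 deleted library. Kmt2d stood at 26.7, 20.3 and 21.9 CPM in the same order. Counts from the 3' end can lie outside a deleted stretch and then check nothing, so the Kmt2d values do not check the Mll4 label, and the labels are used as given.

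The Dntt-expressing cells made up a smaller share of all quality-filtered cells in both single-deletion libraries than in control. They were 9.31% of 7274 control cells (8.65 to 10.0%), 7.0% of 6101 Mll3 deleted cells (6.37 to 7.67%) and 4.90% of 4793 Mll4 deleted cells (4.31 to 5.55%). This order, control then Mll3 deleted then Mll4 deleted, was the same in all 9 settings of thresholds and filters. The other cells of these denominators differed in kind between libraries. Those rich in granule genes numbered 77 in control, 93 in Mll3 deleted and 988 in Mll4 deleted. How far this changed the shares was not tested. After every cell was thinned to 8000 UMIs, which left out 512, 339 and 1193 shallower cells, the shares were 5.63% (5.10 to 6.21%), 4.74% (4.20 to 5.32%) and 2.61% (2.12 to 3.19%). For the same cells before thinning they were 9.86% (9.16 to 10.6%), 7.13% (6.48 to 7.83%) and 6.5% (5.72 to 7.36%). The intervals of control and Mll3 deleted overlapped after thinning, and those of Mll3 deleted and Mll4 deleted before it. Cells with a Flt3 UMI followed the same order. They were 44.3% of control, 32.4% of Mll3 deleted and 22.8% of Mll4 deleted cells, or 32.0%, 22.5% and 16.7% after thinning. Within the Flt3-positive cells the Dntt-expressing share was 21%, 21.6% and 21.5%, so in raw counts the 3 libraries did not differ by this measure beyond counting error. After thinning it was 17.6% (16 to 19.3%), 21.1% (18.9 to 23.4%) and 15.6% (12.8 to 18.8%), with the Mll3 deleted library highest.

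**Figure D1:**
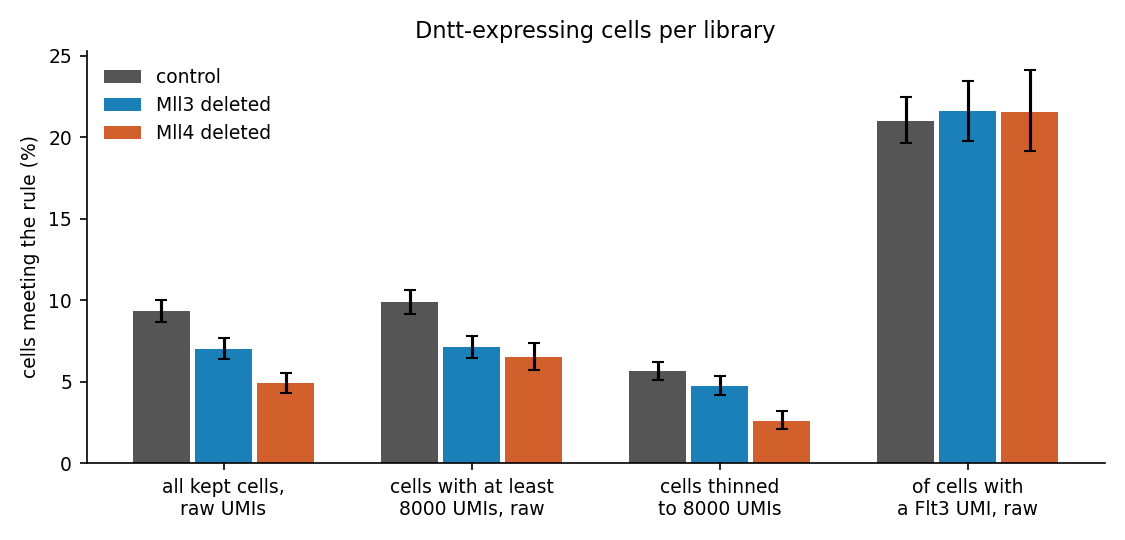
Percent of cells that met the rule in each library, over 4 denominators, with exact 95% intervals for counting error. Among all cells the share falls from 9.31% in control to 4.90% in the Mll4 deleted library, while among cells with a Flt3 UMI the 3 bars lie between 21% and 21.6%.

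The members differed in how much Dntt they held. The median was 9 Dntt UMIs per member in control, 16 in the Mll3 deleted library and 9 in the Mll4 deleted library, or 4.96, 9.61 and 2.63 per 10000 UMIs. Summed over members, Dntt stood at 781, 1357 and 518 CPM and Flt3 at 197, 223 and 175 CPM. At the border of the rule, 86, 45 and 34 members had exactly 3 Dntt UMIs, and 129, 53 and 51 cells with exactly 2 lay outside. Cells with enough Dntt but no Flt3 UMI numbered 60, 86 and 12. Cells that met the Dntt and Flt3 conditions but carried 0.2% or more B-lineage UMIs numbered 3, 60 and 3, so nearly all of them were in the Mll3 deleted library. Of the members, 635, 325 and 208 carried no UMI of the 5 B-lineage genes. The limit did not remove these transcripts. Before thinning, Ebf1 was found in 2.07%, 18.7% and 7.23% of members and Cd79a in 1.03%, 9.84% and 2.13%.

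Members with more Dntt held more Ctr9, Il12a, Ifi27l2a and Clec12a than members with less, in each library. Each library was split at its median of Dntt per UMI (339 and 338, 214 and 213, and 118 and 117 cells), a split on a gene of the rule added after the data were seen. Of 2355 genes, 5 were at least 2-fold higher with more Dntt in all 3 libraries (0.212%) and 0 were lower. Beside Dntt these were Ctr9 (log2 ratios of 1.35, 1.33 and 1.34 in control, Mll3 deleted and Mll4 deleted), Il12a (1.5, 1.28 and 1.10), Ifi27l2a, an interferon-inducible gene (1.33, 1.05 and 1.45), and Clec12a, an inhibitory lectin receptor (1.03, 1.82 and 1.01). Satb1 had 0.76, 0.71 and 1.07. Lower values with more Dntt, not called in all 3, included Hlf (-1.02, -1.81 and -0.45), the mucin Muc13 (-1.08, -2.06 and -0.80) and the granule protease gene Prtn3 (-0.92, -2.47 and -0.62).

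The markers Satb1 and Il12a, which the rule did not use, were several-fold higher in the members than in Flt3-positive cells of the same library with no Dntt UMI (2113, 1310 and 689 cells), in all 3 libraries. That comparison group was itself chosen on Dntt and Flt3, so its differences are descriptions. Il12a encodes the p35 chain of the cytokine interleukin-12 and stood at 104, 167 and 145 CPM in members against 15.3, 18.9 and 31.2 CPM. Satb1 stood at 173, 247 and 87.8 CPM against 36.5, 50.7 and 21 CPM. After thinning, 67.6%, 81.0% and 48.7% of members had a Satb1 UMI, beside 21.1%, 27.3% and 12.8% of Flt3-positive Dntt-zero cells and 23.7%, 24.2% and 16.8% of cells rich in granule genes (77, 93 and 988 cells, median 27706, 26251 and 45379 UMIs), which should lack it. Before thinning 87.4%, 95.1% and 78.3% of members had one. Il12a was found in 46.6%, 64.0% and 57.3% of thinned members and in 5.26%, 9.89% and 12.8% of thinned granule-rich cells. The remaining marker, Ccr9, a chemokine receptor that guides progenitors to the thymus, was seen in few members: 4.58%, 9.37% and 7.66% before thinning and 3.0%, 5.35% and 4.27% after, against 0%, 0% and 0.520% of granule-rich cells. In Flt3-positive Dntt-zero cells the thinned shares were 0.295%, 0.477% and 1.82%, and in the Mll4 deleted library the intervals overlapped (2.07 to 7.72% in members, 0.946 to 3.16%). The lymphoid-primed label therefore rests on Satb1 and Il12a, and Ccr9 marks a small part of the members.

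Il12a and Satb1 are the markers outside the rule that separated the members in every library, and the 300 bases around an annotated start of each are shown for that reason (RefSeq, mouse GRCm38.p6, 250 bases before and 50 after the start, 5′ to 3′ on the gene's strand). Capitals mark the E-box letters CAGGTG or the reverse complement CACCTG, the kind of element that E proteins such as the product of Tcf3 bind. The Il12a window lies at chr3:68690394-68690693 on the plus strand and holds 1 match, whose first base is at position 166 of the window, or -85 from the start. The Satb1 window lies at chr17:51833241-51833540 on the minus strand and holds 1 match, at position 252, or 1 counted from the start.
Il12a: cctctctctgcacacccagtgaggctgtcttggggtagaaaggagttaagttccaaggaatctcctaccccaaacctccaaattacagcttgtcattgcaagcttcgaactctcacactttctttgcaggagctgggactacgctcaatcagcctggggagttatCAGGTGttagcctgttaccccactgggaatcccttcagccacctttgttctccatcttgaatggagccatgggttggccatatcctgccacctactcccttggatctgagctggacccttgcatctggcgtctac
Satb1: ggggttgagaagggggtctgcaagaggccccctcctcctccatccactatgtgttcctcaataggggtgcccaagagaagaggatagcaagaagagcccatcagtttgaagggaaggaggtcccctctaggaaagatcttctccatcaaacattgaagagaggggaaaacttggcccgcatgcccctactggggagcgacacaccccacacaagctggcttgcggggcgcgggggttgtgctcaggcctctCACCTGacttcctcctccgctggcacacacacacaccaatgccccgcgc
The same letters occurred in 6640 of 32851 windows of this length in the table (20.2%), so their presence in both is a description and not a site. The Ccr9 window (chr9:123766961-123767260, plus strand) held 1 match. The windows of Dntt (chr19:41029025-41029324, plus strand) and Flt3 (chr5:147400440-147400739, minus strand) held none, which says only that these letters are not in these windows. Another Il12a start held 0, and of 4 other Satb1 starts 1 held a match, so the windows shown are among those that hold the letters. The 20.2% is a share of windows, and a gene with several starts has several windows in which a match can occur.

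Against the Flt3-positive Dntt-zero cells, 8 of 5501 genes were at least 2-fold higher in the members of all 3 libraries (0.145%) and 11 were at least 2-fold lower (0.2%). Beside Dntt, Il12a and Satb1 the higher genes were Notch1, Cd69, Ctr9, Bex6 and Cnn3. Notch1, the receptor whose signal directs progenitors to the T cell fate, stood at 68.1, 104 and 45 CPM in members (log2 ratios of 1.84, 2.19 and 1.92). Cd69, a lectin that holds lymphocytes in tissue, had log2 ratios of 1.78, 2.84 and 1.17. Ctr9, a subunit of the PAF1 elongation complex, had 1.39, 2.01 and 1.11. Both were highest over the comparison cells in the Mll3 deleted library and lowest in the Mll4 deleted library. Below the 2-fold limit in at least 1 library were Smad7, an inhibitor of TGF-beta signalling (1.06, 1.54 and 0.91), the adhesion receptor Adgrg3 (1.21, 1.49 and 0.89), the histone variant gene H2afy (1.02, 0.97 and 0.89), Egfl7 (0.80, 1.23 and 1.19) and the transcription factor Mef2c (0.77, 0.82 and 0.73). Rasgrp2, Xpc, Gpr171 and Maml3 completed the 15 genes of the naming rule, with log2 ratios above 0 in every library.

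The genes that were lower in members included genes of antigen presentation and of stem cells. Cd74, the invariant chain of MHC class II, had log2 ratios of -1.93, -2.09 and -3.14, H2-Aa -1.86, -2.38 and -2.81, and H2-Eb1 -1.66, -2.23 and -2.79. H2-Ab1 lay just short of the limit in control at -0.98 and past it in the Mll3 deleted (-1.73) and Mll4 deleted (-2.50) libraries. The comparison cells were mixed. In the Mll4 deleted library they held 5352, 6289 and 2845 CPM of the dendritic, plasma and neutrophil lists, against 1190, 252 and 136 in members. In control these were 1079, 673 and 18.4 against 830, 475 and 457 CPM. Most of the 457 CPM came from 1 control member, described below. In the Mll3 deleted library they were 2082, 1252 and 10.3 against 1186, 1767 and 5.87 CPM. How far such cells set the class II ratios was not tested. Gata2, a transcription factor of stem and mast cells, stood at 22.3, 34 and 32.1 CPM in members against 70.7, 82.9 and 67.8 CPM. Dach1, Apoe, Gng11, Pdzk1ip1, Hsd3b7, Sdsl and Tbxas1 were the other genes lower in all 3. Of the list of stem cell genes, 6 of 10 tested were lower in control (0.759% of all genes), 4 of 10 in the Mll3 deleted library (1.18%) and 1 of 8 in the Mll4 deleted library (1.62%), with medians of -1.12, -0.82 and -0.44 beside all-gene medians of -0.03, -0.01 and 0.03. Hoxa9, a homeobox gene of the list, ran the other way at 0.30, 0.50 and 0.92. The tetraspanin Cd63 had -1.61, -1.68 and -0.97, and Fut8, Anxa5, S100a6 and Rgs1 had log2 ratios below 0 in every library.

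**Figure D2:**
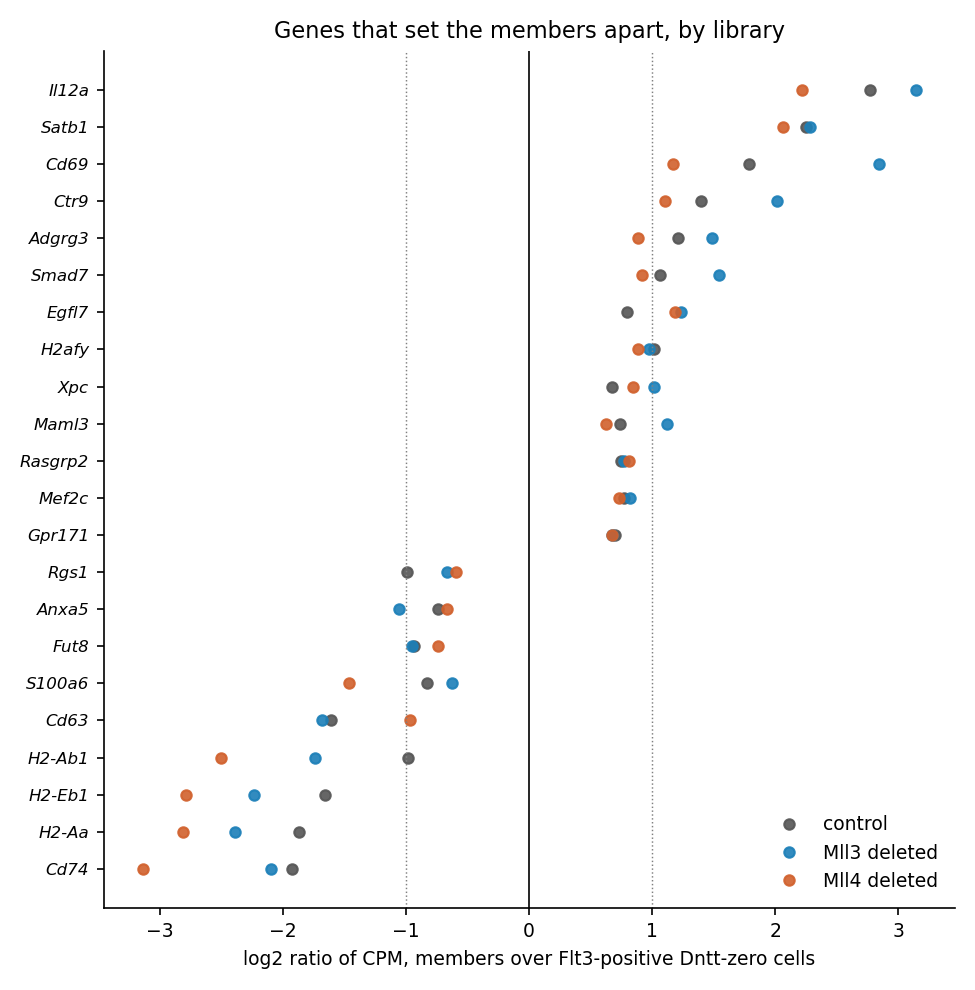
Log2 ratio of CPM (horizontal axis) between members and Flt3-positive Dntt-zero cells of the same library for genes of the naming rule, without the rule genes Dntt and Flt3, with 1 point per library and dotted lines at 2-fold. Il12a, Satb1, Cd69 and Ctr9 lie right of the 2-fold line in all 3 libraries, and Cd74, H2-Aa and H2-Eb1 lie left of it in all 3.

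The list of lymphoid priming holds 18 genes beside Dntt and Flt3, among them Il12a, Satb1 and Notch1, already described. Of these, 4 of 12 tested were at least 2-fold higher in control members than in Flt3-positive Dntt-zero cells (0.658% of all genes), 7 of 14 in the Mll3 deleted library (1.14%) and 3 of 13 in the Mll4 deleted library (0.251%). Il12a, Satb1 and Notch1 are counted in each of these, so they are the 3 of the Mll4 deleted library. Beyond them, the counts add Wfdc17 in control (1.70) and Il7r, Ly6d, Cd53 and Ighm in the Mll3 deleted library (6.84, 5.82, 1.36 and 1.17). The medians were 0.84, 0.99 and 0.32. In the Mll4 deleted library 2 genes of the list were lower, among them Ighm at -2.61. The comparison cells there held 6289 CPM of the plasma cell list, against 252 CPM in members. The list was drawn up with earlier results of these cells known. Genes of mitosis were not called, but all 16 tested lay above 0 in each library, with medians of 0.29, 0.46 and 0.53. After thinning, 72.4%, 69.3% and 80.8% of members had at least 2 UMIs of the 16 mitotic genes, against 59.4%, 60.6% and 65.5% of Flt3-positive Dntt-zero cells. Before thinning the members' shares were 80.5%, 78.7% and 93.6%.

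In the Mll3 deleted library the members carried more transcripts of early lymphoid specification than in control. Ly6d, a surface marker of progenitors that enter the B lineage, rose from 29.5 to 175 CPM (log2 ratio 2.56, interval 2.41 to 2.72). Il7r, the alpha chain of the interleukin-7 receptor, rose from 14.5 to 60.2 CPM (2.05, 1.82 to 2.29). Blnk, an adaptor of the pre-B cell receptor, rose from 7.05 to 36.4 CPM (2.37, 2.04 to 2.71), and Ets1, a lymphoid transcription factor, from 18.8 to 43.7 CPM (1.21, 0.98 to 1.44). Rag1 stood at 3.45 CPM in control and 34.8 CPM in the Mll3 deleted library (3.32, 2.89 to 3.80), which is below the mean of 20 CPM asked of a tested gene. The Mll4 deleted members stood at 22.5 for Ly6d, 21.6 for Il7r, 2.90 for Blnk, 19.6 for Ets1 and 2.78 for Rag1 in CPM. Their log2 ratios to control depended on the setting, from -3.74 to 0.22 for Ly6d, -0.05 to 2.12 for Il7r, -2.39 to 2.08 for Rag1 and -0.09 to 1.11 for Ets1 over 14 settings. In GENCODE M21 (GRCm38) Ly6d lies on chromosome 15 from 74762056 to 74763620, Il7r on chromosome 15 from 9505788 to 9530176 and Rag1 on chromosome 2 from 101638282 to 101649501, all on the minus strand.

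Over all genes, 27 of 5937 were at least 2-fold higher in Mll3 deleted members (0.455%) and 15 were at least 2-fold lower (0.253%). Over all genes the median log2 ratio was 0.14 rather than 0, and it came to -0.0051 with TMM scaling, so ratios are read against that shift and Cd69 (1.08), Ighm (1.06) and Jun (1.01) lie within it of the 2-fold limit. The lower calls depended on the scaling, with 28 under TMM. Of the lymphoid priming list 4 of 15 genes were higher and 1 was lower, with a median of 0.36. Ighm, which lies within that shift of the limit, is among the 4. Of the genes of B cell specification outside the rule 3 of 4 were higher (Ly6d, Il7r and Blnk). Ly6d and Il7r are in both lists, so the 2 counts are not separate. In the Flt3-positive Dntt-zero cells the same lymphoid list gave 0 of 11 higher and 0 lower (all genes: 28 of 6135, 0.456%, higher and 22, 0.359%, lower), with a median of 0.01. Il7r had a log2 ratio of -0.68 and Ly6d of 0.61 there, but neither reached the 20 CPM asked of a tested gene. Before thinning, Il7r was found in 8 of 2113 control and 4 of 1310 Mll3 deleted cells of this group, and Ly6d in 11 and 11. These cells were chosen for having no Dntt UMI, so the 2 ratios say little about them. Whether members and Flt3-positive Dntt-zero cells differ in these ratios was not tested.

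How far these genes reached was visible cell by cell. After thinning, an Il7r UMI was found in 7.95% of control, 23.8% of Mll3 deleted and 8.55% of Mll4 deleted members, beside 0%, 2.20% and 1.14% of granule-rich cells. Before thinning the members' shares were 10.5%, 32.1% and 13.2%. Rag1 was found in 1.95%, 12.9% and 2.99% of thinned members and Ly6d in 2.40%, 16.3% and 3.85%. At least 2 of the 4 genes Il7r, Rag1, Ly6d and Blnk were found together in 22 of 667 control members (3.30%, 2.08 to 4.95%), 83 of 411 Mll3 deleted members (20.2%, 16.4 to 24.4%) and 7 of 234 Mll4 deleted members (2.99%, 1.21 to 6.07%). All 4 were found together in 19 members of the Mll3 deleted library, 0 of control and 2 of the Mll4 deleted library. Most Mll3 deleted members, 259 of 411, had none of the 4.

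**Figure D3:**
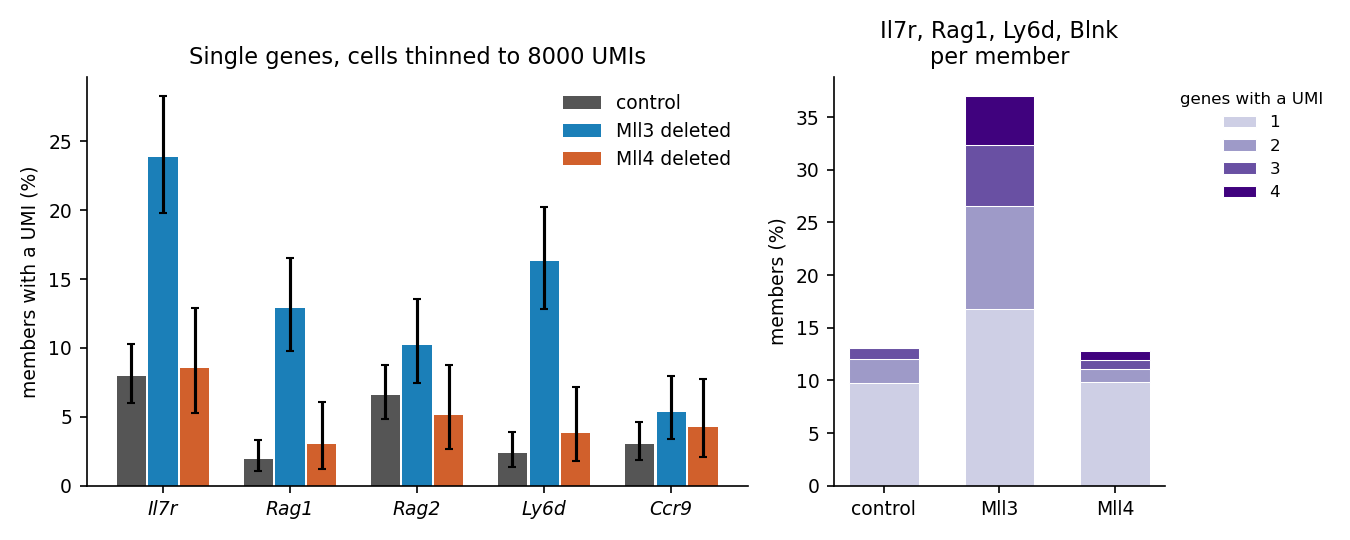
Left, percent of members with a UMI of 5 specification and homing genes after thinning to 8000 UMIs, with exact 95% intervals for counting error. Right, percent of members with 1, 2, 3 or 4 of the genes Il7r, Rag1, Ly6d and Blnk. The Mll3 deleted bars for Il7r, Rag1 and Ly6d (23.8%, 12.9% and 16.3%) stand above the intervals of the other 2 libraries.

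The same ratios were taken over subsets of members by B-lineage UMIs and by Dntt level, in settings added after the data were seen. With only members that had no UMI of the 5 B-lineage genes, the log2 ratios were 1.05 for Ly6d, 1.5 for Il7r, 1.32 for Rag1 and 1.40 for Blnk, and 15 genes in place of 27 were higher. Ets1 then lay below the 2-fold limit at 0.85. With only members of 2 to 10 Dntt UMIs per 10000 UMIs they were 1.76, 2.37, 3.6 and 1.95, and Ets1 had 0.79. Over 14 settings Il7r ranged from 1.5 to 2.37 and Ly6d from 1.05 to 3.75, so both kept their direction and the 2-fold limit. The lowest Ly6d value, without B-lineage UMIs, passed that limit by less than the all-gene median of that setting (0.136).

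The members were also split by Il7r, a division added after the data were seen. Members with an Il7r UMI numbered 71, 137 and 31. Dntt, a rule gene, stood at 1945, 2300 and 1034 CPM in them, against 625, 848 and 405 CPM in members without one. Kit, the stem cell factor receptor, was lower with Il7r, at 75.9, 88.9 and 138 CPM against 157, 133 and 247 CPM. Hlf, a transcription factor of stem cells, stood at 53.5, 68.9 and 106 CPM against 182, 173 and 207 CPM. The antibody signal for CD117, the protein of Kit, moved with its transcript, with median centred log ratios of -0.0723, -0.112 and 0.176 against 0.615, 0.535 and 0.505.

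Outside lymphoid genes, Egr1, Fosb, Jun, Iigp1, Gem, Sdc4 and Apoe rose in Mll3 deleted members. Egr1 rose from 15.2 to 52.8 CPM (1.79), Fosb from 23.7 to 79.2 CPM (1.74) and Jun from 159 to 319 CPM (1.01), which made 3 of 7 tested immediate early genes (0.455% of all genes), with a median of 0.97. The log2 ratio of Jun passed the limit of 1 by less than the all-gene median of 0.14. The Flt3-positive Dntt-zero cells showed 4 of 8 (0.456% of all genes) and a median of 1.13. Iigp1, an interferon-inducible GTPase, rose from 19.9 to 64.8 CPM. Gem, a small GTPase, rose from 32.7 to 114 CPM, and Sdc4, a heparan sulphate proteoglycan of the cell surface, from 11.8 to 50.4 CPM (log2 ratios of 1.80 and 2.09). Gem had a log2 ratio of only 0.49 in the Flt3-positive Dntt-zero cells. Apoe rose from 30.3 to 92.4 CPM. No gene of the homing list (8 tested, median -0.30), the stem cell list (8, 0.39) or the list of Mll complex subunits (13, 0.06) was called.

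The lower genes were led by Tspan32, a tetraspanin of haematopoietic cells, which fell from 146 to 20.9 CPM (-2.80, -3.03 to -2.59) and had -1.97 in the Flt3-positive Dntt-zero cells. Wfdc17, a protease inhibitor gene of the lymphoid priming list, fell from 139 to 47.4 CPM (-1.55). Tyrobp, a signalling adaptor of myeloid and natural killer cells, fell from 95.7 to 39.4 CPM, Ifitm1 from 315 to 133 CPM, Fyb from 59.2 to 27.5 CPM and S100a11 from 148 to 69.2 CPM. Several named genes rested on single cells. One control member held 918 of 930 Ngp UMIs, 724 of 749 Camp, 1613 of 1665 S100a8 and 2229 of 2301 S100a9, so the log2 ratios of these neutrophil granule genes (-7.89, -6.73, -6.01 and -5.90) describe 1 barcode, and came to -3.44, -4.64, -1.24 and -0.91 without the 5 members richest in each gene. In the same way Jchain went from 2.50 to 0.29, Elane from 2.38 to 0.11 and Ighm from 1.06 to 0.59.

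In the Mll3 deleted library, the 60 cells with Dntt, Flt3 and a B-lineage share at or over the limit could be set beside the members. Of 5825 genes 372 were at least 2-fold higher in members (6.39%) and 210 lower (3.61%). The surrogate light chain genes were part of the rule and are not counted as findings. Outside it, Lef1, a transcription factor of B and T cell progenitors, stood at 2.37 CPM in members and 187 CPM in B-lineage cells. Il7r had a log2 ratio of -1.48. The members were higher for Cd34 (394 against 30.9 CPM), Kit (1.70) and Notch1 (1.97), and for 5 of 8 stem cell genes, with a median of 1.46 beside 0.04 for all genes. Of 16 mitotic genes 4 were lower in members, with a median of -0.81. Class II genes were higher in members, 5 of 6.

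In the Mll4 deleted library several granule, mast cell and class II genes were higher in CPM in members than in control members. Over all genes 150 of 5851 were at least 2-fold higher (2.56%) and 37 were at least 2-fold lower (0.632%), with an all-gene median of -0.06. Of the granulocyte and monocyte list 5 of 11 genes were higher. Elane, neutrophil elastase, rose from 19.7 to 508 CPM (log2 ratio 4.69) and Mpo, myeloperoxidase, from 124 to 1155 CPM (3.22). Ms4a3, a membrane protein of granulocyte and monocyte progenitors, rose from 2.59 to 94.9 CPM (5.18). F13a1, a coagulation transglutaminase of monocytes and megakaryocytes, rose from 1.87 to 70.8 CPM, and Ly6c2, a monocyte surface gene, from 5.54 to 65.7 CPM. Cpa3, a protease of mast cell granules, rose from 3.88 to 65.5 CPM, and Cma1, mast cell chymase, had 0 UMIs in control members and 346 in Mll4 deleted members. Of the class II list 3 of 6 were higher, with H2-Eb1 at 2.22, H2-Aa at 2.05 and Cd74 at 1.67. Bc1 (3.91), Snhg9 (3.79), 2 noncoding RNA genes, and the metallothionein Mt1 (3.23) completed the named genes that rose, with Dennd5b below.

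These transcripts were also spread over other cell types of the same library. Summed over each list of 10 markers, control, Mll3 deleted and Mll4 deleted members held 13.4, 9.37 and 157 CPM of mast cell and basophil genes, with 4, 6 and 0 of them at 0, 14.4, 10.4 and 103 CPM of macrophage genes and 457, 5.87 and 136 CPM of neutrophil genes. Most of the 457 CPM came from 1 control member. An Elane UMI was found in 70.6% of Mll4 deleted members, beside 66.4% of 134 cells rich in Igkc and Jchain, 65.2% of 528 cells rich in class II genes and 49.1% of 641 cells rich in mast cell genes, which should lack it. In control members the share was 3.99%. After thinning it was 31.2% of Mll4 deleted members and 40.9% of Flt3-positive Dntt-zero cells. The 5 richest members held 82.2% of the Elane UMIs and 73.3% of the Mpo UMIs. Without them Elane stood at 90.4 CPM and Mpo at 309 CPM in Mll4 deleted members. The Igkc-rich, class II-rich and mast-rich cells, from which no cells were left out, held 42.2 to 214 CPM of Elane and 109 to 361 CPM of Mpo. With all members kept, the members lay above both ranges, so the 2 sides are alike only after the members alone were trimmed. Cpa3 stood at 65.5 CPM in members, below the 156 CPM of the Igkc-rich and the 408 CPM of the granule-rich cells, and Cd74 at 215 CPM, between 93.4 CPM in granule-rich and 2404 CPM in Igkc-rich cells. The part of free RNA in these values was not tested. Prtn3 (1.15) and Ctsg (1.78) came to -0.02 and 0.85 without the 5 richest members. Elane came to 5.80 without them and ranged from 2.88 to 7.85 over 14 settings. Its control level rested on 27 of 677 members with a UMI, so the size of this ratio is uncertain. Cd74 lost its call at 0.80 with doublets removed and 0.93 with members rich in other-lineage genes left out.

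Mecom, a transcription factor that stem cells depend on (chromosome 3, 29951296 to 30548008, minus strand), rose from 39.3 CPM in control to 140 CPM in Mll4 deleted members (1.83, 1.68 to 1.98), with 49.5 CPM in Mll3 deleted members. It stood at 11.7 to 22.4 CPM in the granule-rich, Igkc-rich, class II-rich and mast-rich cells of the Mll4 deleted library. After thinning 60.7% of Mll4 deleted members had a Mecom UMI, against 24.7% of control and 28.2% of Mll3 deleted members, and 4.16% of granule-rich cells of the Mll4 deleted library. In the Flt3-positive Dntt-zero cells the thinned shares were 64.3% in the Mll4 deleted library, 47.4% in control and 55.6% in the Mll3 deleted library, so the high share was not particular to the members. Its log2 ratio ranged from 1.69 to 2.05 over 14 settings, and it was 1.08 in the Flt3-positive Dntt-zero cells. Mecom was the only 1 of 8 stem cell genes called, and Kit had a log2 ratio of 0.62. Dennd5b, a regulator of vesicle traffic, rose from 24.7 to 181 CPM (2.87) and stood at 57.7 to 115 CPM in the same 4 reference groups. It was also high in the Flt3-positive Dntt-zero cells, at 172 CPM (2.71).

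**Figure D4:**
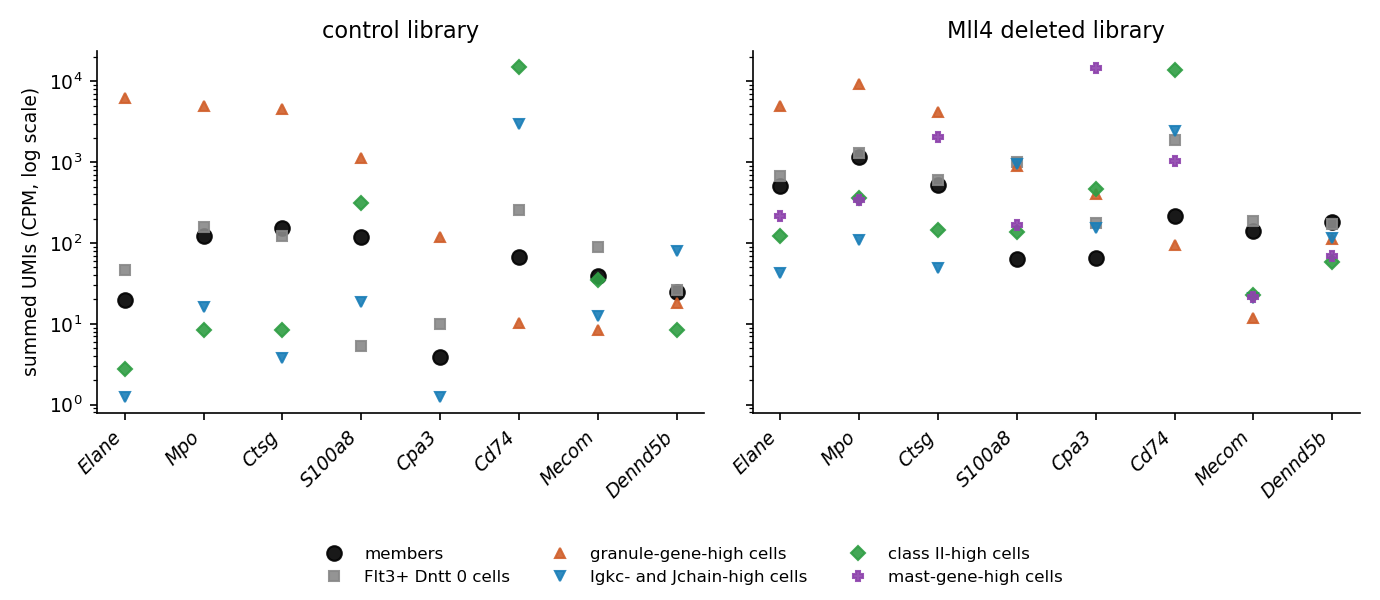
Summed UMIs as CPM on a log axis for 8 genes in members, Flt3-positive Dntt-zero cells and reference cells rich in genes of another lineage, in the control and the Mll4 deleted library. Values of 0 are not drawn, and the mast-rich group is drawn in the Mll4 deleted library. Mecom and Dennd5b are the genes for which the Mll4 deleted members (140 and 181 CPM) lie above all 4 reference groups.

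No gene of lymphoid priming passed the 2-fold limit in the Mll4 deleted members. All 13 tested lay within 2-fold of control, and the median was -0.39 beside -0.06 for all genes. The lymphoid median turned to 0.13 when members were chosen after thinning and to 0.18 among members in the CD150-CD135+ gate, so its direction depends on depth and gate. Satb1 had a log2 ratio of -0.98 (-1.10 to -0.86), and ranged from -1.08 to -0.72 over 14 settings. Notch1 had -0.60 and Sox4, a transcription factor of lymphoid progenitors, -0.75. Lck, the kinase of the T cell receptor, fell from 28.4 to 12.2 CPM (-1.22). In the Flt3-positive Dntt-zero cells Satb1 had -0.80, while 4 of 11 genes of the list were higher (all genes: 205 of 6056, 3.39%).

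Tspan32 fell in the Mll4 deleted members too, from 146 to 16.2 CPM (-3.16), so it was low in both deletion libraries and in both cell groups (-2.55 in the Flt3-positive Dntt-zero cells). It was found in 90.0% of control members, 32.3% of Mll3 deleted and 35.3% of Mll4 deleted members. The other named genes that fell were Rgs10, a regulator of G protein signalling (52.5 to 16.7 CPM), Shisa8 (56.4 to 18.0), the histone gene Hist1h2ac (57.8 to 19.7), the protease gene Klk8 (65.1 to 22.4) and the antiproliferative gene Btg2 (79.3 to 30.4). Shisa8 and Klk8 stood at 98.6 and 119 CPM in Mll3 deleted members, above control. Tpm3-rs7 fell from 104 to 4.18 CPM and stood at 237 CPM in the Mll3 deleted library, but it can share reads with Tpm3 and its value is uncertain. Gem (1.58), Egr1 (1.53) and Iigp1 (1.26) rose in the Mll4 deleted members as they did in the Mll3 deleted ones. The 2 comparisons share the control cells. Jund ran apart, at 183 CPM in control, 359 in Mll3 deleted and 83.6 in Mll4 deleted members.

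Antibody counts were not used by the rule, although CD135 is the protein of the rule gene Flt3 and its values are a description. On a centred log ratio scale (natural log over 6 antibodies), CD135, the protein of Flt3, had medians of -0.83, -0.72 and -1.24 in members against -1.43, -1.38 and -1.43 in Flt3-positive Dntt-zero cells. CD48, which marks progenitors that have left the stem cell pool, stood at 3.11, 2.86 and 3.34 against 2.38, 1.44 and 2.79. On this scale the members were higher for both proteins in each library. As a share of all antibody UMIs, CD135 was 1.65%, 1.88% and 0.893% in members against 1.2%, 1.53% and 1.12%, so in the Mll4 deleted library its direction depended on the scale. CD117 was lower in members, at 0.57, 0.39 and 0.47 against 0.95, 1.18 and 0.69. CD150, a stem cell marker, had medians of -2.05, -1.82 and -1.89 in members. CD34 stood at 0.94, 1.49 and 0.82 and CD201, the endothelial protein C receptor found on stem cells, at -1.70, -2.16 and -1.27.

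With 1 threshold set over the cells of all 4 libraries, 60.0% of control members (56.2 to 63.7%), 61.4% of Mll3 deleted (56.6 to 66.0%) and 29.4% of Mll4 deleted members (23.6 to 35.6%) were CD150-CD135+, the gate of lymphoid-biased multipotent progenitors known as MPP4. Another 38.6%, 29.7% and 66.0% fell in the MPP3 gate (CD150-CD48+CD135-). The Mll4 deleted value depended on the threshold, since it was 69.8% beside 77.0% and 76.8% when each library had its own CD135 threshold (-1.17 in control, -1.21 in Mll3 deleted and -1.49 in Mll4 deleted, against -0.948 shared). Without centring the shares were 69.7%, 80.8% and 52.8%. Of the Flt3-positive Dntt-zero cells 9.18%, 13.5% and 16.3% were in the MPP4 gate with the shared threshold, 21.7%, 31.2% and 51.8% with a threshold per library, and 21.8%, 42.0% and 28.7% without centring. The members' share was higher in each library under all 3. The stem cell gate held 0, 11 and 0 members with the shared threshold, 0, 8 and 0 with a threshold per library, and 0, 0 and 0 without centring.

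**Figure D5:**
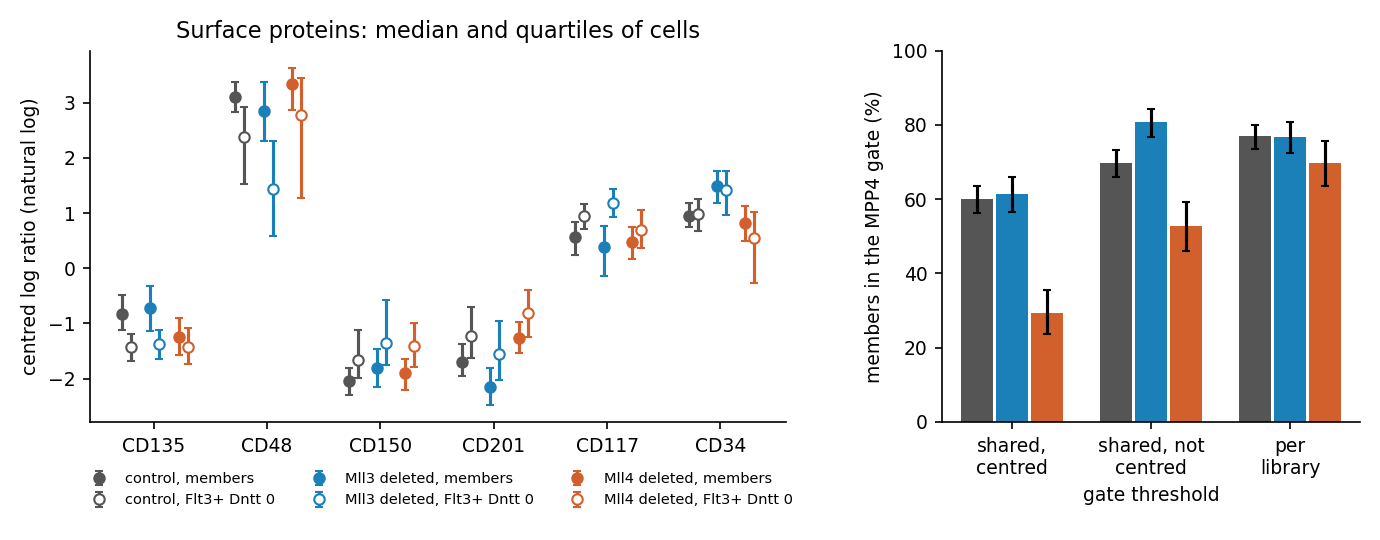
Left, median and quartiles over cells of the centred log ratio (natural log) of 6 surface proteins, for members (filled) and Flt3-positive Dntt-zero cells (open) of each library. Right, percent of members in the MPP4 gate under 3 ways of setting the threshold, with exact 95% intervals; the Mll4 deleted share runs from 29.4% to 69.8%.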

How the data were processed

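Single-cell 3' transcript counts and antibody counts were analysed for 3 of the 4 libraries. The values are whole-number UMI counts per gene or antibody and barcode, as deposited by the authors in filtered matrices made with Cell Ranger 6.1.1, per the file headers and the submitters' processing notes, which also name the build mm10. Gene IDs matched GENCODE M21 in 32235 of 32285 cases, and coordinates and RefSeq promoters are from GRCm38.p6.

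The members and the gene lists were chosen with earlier results of these data known. For each group of cells in a library, UMIs were added up and scaled to CPM. Log2 ratios were taken after 0.5 UMIs were added. A gene counted as tested at a mean of at least 20 CPM over the pair and as higher or lower at 2-fold. The split by Dntt took in a smaller set of 2355 genes. Named genes were the 10 highest and 10 lowest ratios with at least 50 CPM in 1 library of the pair and, against Flt3-positive Dntt-zero cells, the 15 with the highest minimum and 10 with the lowest maximum over libraries. Left out of the naming were mitochondrial, ribosomal, haemoglobin, antigen receptor, Xist, Tsix, Y-linked and unnamed genes. Some genes that the rule names are not reported here. Other genes were named from the lists or, as Dennd5b, Mecom and the single-cell cases, after their values were seen. The rule for the comparison with B-lineage cells, the splits by Il7r and by Dntt, and the reference groups rich in granule, mast, class II or Igkc and Jchain UMIs (at least 1% of a cell's UMIs) were added after the data were seen. Cells were thinned to 8000 UMIs where shares were compared. Gates came from 2-component Gaussian mixtures on the centred antibody values. The ratio and interval code was tested on simulated data. Software was Python 3.11.15 with numpy 2.4.6, scipy 1.17.1, pandas 2.3.3, scikit-learn 1.9.0, scanpy 1.11.5 and matplotlib 3.10.9. Members held 13909431, 8863241 and 8620011 UMIs in control, Mll3 deleted and Mll4 deleted libraries.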

Additional observations from a re-analysis of the deposited data

Results flagged for a closer look

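Some genes moved one way in the members and the other way in another group. None of these differences was tested, since each genotype is 1 library. Against control, the Mll4 deleted members had log2 ratios of -2.28 for Camp, -3.07 for Ngp, -1.93 for S100a9, -1.08 for Igkc and -1.0 for Jchain. The Flt3-positive Dntt-zero cells of the same libraries had 7.05, 7.62, 7.08, 3.33 and 3.01. The 3 granule genes rest on 1 control member and turn in sign without the richest cells.

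The ratio of members to Flt3-positive Dntt-zero cells also changed sign between libraries for 4 genes. In control, Mll3 deleted and Mll4 deleted order it was 0.89, 1.17 and -2.61 for Ighm, -1.22, 1.14 and -0.42 for Elane, 1.24, -0.20 and -1.33 for Irf8, and -0.89, 1.74 and -4.90 for Jchain. The Mll3 deleted values of Elane and Jchain rest on few members. Without the 5 members richest in each gene, their Mll3 deleted ratios to control came to 0.11 and 0.29. Before thinning, an Elane UMI was found in 4.68% of Mll3 deleted members and 4.66% of the Flt3-positive Dntt-zero cells.

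In the library with both genes deleted, which no comparison above uses, 702 of 4748 cells (14.8%) were positive for Dntt and Flt3 but at or over the B-lineage limit, against 3 of 7274 in control.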

How the results depend on the processing

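No paired analysis was possible because each genotype is 1 library with no shared replicate. In control, Mll3 deleted and Mll4 deleted order, member shares were 5.63%, 4.74% and 2.61% thinned, 11.1%, 7.87% and 5.97% with at least 2 Dntt UMIs, 7.09%, 5.82% and 3.65% with at least 5, 8.11%, 6.15% and 3.05% with at least 2 per 10000 UMIs, and 10.3%, 7.92% and 6.08% in cells of 2000 or more genes and no more than 5% mitochondrial UMIs. Genes higher and lower in Mll3 deleted members, 27 and 15 as reported, were 126 and 66 from a minimum of 5 CPM, 9 and 2 from 100 CPM, and 55 and 29 thinned. The lower ones were 28 with TMM, 28 with median-of-ratios scaling, 47 on totals without mitochondrial and ribosomal genes, and 23 in the MPP4 gate, and the higher ones 15 without B-lineage UMIs. For Mll4, 150 and 37 became 296 and 99 from 5 CPM and 55 and 6 from 100 CPM, with 99 lower when thinned. Against Flt3-positive Dntt-zero cells, 8 and 11 became 25 and 51 from 5 CPM and 2 and 1 from 100 CPM, with 18 higher when thinned. MPP4 shares were 69.7%, 80.8% and 52.8% uncentred and 77.0%, 76.8% and 69.8% with a threshold per library. Shares with mitotic UMIs were 80.5%, 78.7% and 93.6% unthinned. In Mll4 against control, these 2-fold values and list median turned in sign: Prtn3 (-0.46 thinned, -0.02 without the 5 richest members), the lymphoid median (0.13 thinned, 0.18 in the MPP4 gate), and Ngp, Camp and S100a9 (3.11, 2.63 and 3.07 with other-lineage members left out, 2.65, 1.64 and 3.1 at 2 to 10 Dntt UMIs per 10000, and 3.42, 2.68 and 3.18 without the 5 richest members). Lower minimums test more genes; the cause of the other changes was not tested. The restrictions on B-lineage UMIs, Dntt level, richest members and other-lineage cells were chosen after seeing the data. Of the other values, 878 moved by less than their interval or a set width, 383 moved by more and 13 turned in sign. The width applied to list medians and to ratios over Flt3-positive Dntt-zero cells. The 13 hold only values that were at least 2-fold, or list medians past that width, as reported. Smaller values changed sign too. Among them were Mll4 deleted ratios of Ets1 (same sign in 10 of 14 settings), Ly6d and Rag1 (12 each), and the Mll3 deleted ratio of Prtn3 (11).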
